A study of Homo sapiens with 4 samples.

Results

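The nuclear genes for subunits and assembly factors of the mitochondrial respiratory chain were compared between parental A549 cells and TD cells, complex by complex. A549 is an established human lung adenocarcinoma line of epithelial morphology, and it gave 2 libraries. TD is A549 kept on TGF-β, added at 2 ng/ml in intervals of 3 days, with a mesenchymal-like morphology per the labels, and it gave the other 2. Both lines grew in DMEM with 10% serum and gentamycin, and RNA came from bulk cultures of each line, so fewer cells of a type and less RNA per cell cannot be told apart. How long TD cells had been on TGF-β, and whether the line goes back to 1 clone, is not stated in the sources used here. Nor do the labels say whether each library had a culture of its own, so every p-value reflects the spread among these 4 libraries alone, and that spread may be technical.

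Members were the protein-coding genes whose symbols begin with NDUFA, NDUFB, NDUFC, NDUFS or NDUFV, with COX and a digit, with UQCR or with ATP5, together with SDHA to SDHD and CYC1. That rule gave 109 of the 57820 genes in the count files. By role they comprised 37 subunits of complex I, 4 of complex II, 10 of complex III, 18 of complex IV and 19 of the ATP synthase. A further 8 are assembly factors of complex I and 9 of complex IV, and the remaining 4 are the supercomplex factor COX7A2L, the ATP synthase inhibitor ATP5IF1 and 2 read-through loci. NDUFA4 and its paralog NDUFA4L2 are counted with complex IV in spite of their names. ATP5S, a coupling factor, is counted among the subunits of the ATP synthase.

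The respiratory chain sits in the inner mitochondrial membrane. Complexes I and II pass electrons from NADH and succinate to ubiquinone, complex III passes them on to cytochrome c, and complex IV hands them to oxygen. Complexes I, III and IV pump protons, and the ATP synthase uses the resulting gradient to make ATP. A small number of the catalytic subunits are encoded in mitochondrial DNA, while the nuclear genome encodes the rest, along with the chaperones and cofactor-loading enzymes that put the complexes together. TGF-β-driven transitions are often studied for shifts between respiration and glycolysis, and A549 is a common model for them.

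Libraries held between 26729278 and 44133836 gene counts. CDH1, E-cadherin, stood at 189 and 191 CPM in A549 and 2.86 and 3.05 CPM in TD, and CDH2, N-cadherin, at 0.431 and 0.539 CPM in A549 and 178 and 197 CPM in TD, in the direction of the epithelial and mesenchymal-like labels. EPCAM, an epithelial surface marker, went from 151 ± 3.83 to 0.150 ± 0.0660 CPM, and all 8 identity markers that could be tested were called. Of the markers of other cell types, CD3E had 0 counts in every library, and PTPRC and CDH5 had at most 4 and 3 counts in any. CD79A reached at most 11 counts, and CD14, of monocytes, was at 0.826 and 0.775 CPM in A549 and 0.345 and 0.172 CPM in TD. The CD14 call was lost without A549 replicate 1 (adjusted p = 0.248) or 2 (0.227), by the DESeq2 test (0.121), and with library totals (0.0569) among other settings. Among the called members, ATP5MD, COX15, COX17, COX6A1, NDUFA13, NDUFB8, NDUFC1 and NDUFV2 have exons that overlap another gene on the same strand in the annotation, so the assignment of some of their reads is uncertain. TD replicate 2 stood apart in several respects. Pseudogenes took 0.373% of its gene counts, against 1.11% to 1.15% in the other libraries. It was also the deepest library, with 44133836 gene counts. Its scaling factor by edgeR's TMM method was 0.922, against 1.01 to 1.04 in the others.

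More respiratory chain genes were called lower than higher in TD, and among the called the largest changes were the rise of the assembly factor NDUFAF2 and the falls of the complex I subunit NDUFB8 and of COX15 and COX17, which equip complex IV with heme and copper. Of the 102 members that passed the low-count filter, 19 were called lower and 7 higher in TD by edgeR's quasi-likelihood test, with called meaning a Benjamini-Hochberg adjusted p below 0.05 over all tested genes. That is 25.5% of tested members, a share that moved above or near that of all genes in some alternatives given below. Over all 17785 tested genes 43.0% were called, 21.4% lower and 21.6% higher, as were 52.1% of the 8891 protein-coding genes with a mean of at least 10 CPM (counts per library size, with sizes scaled by edgeR's TMM method). Only 8 members were called with at least a 1.5-fold change, against 31.5% of all tested genes, and 1 with at least 2-fold, against 21.8%. By an unadjusted p below 0.05, 37 members passed, against 51.1% of all tested genes. The median change of the tested members was -0.12 on the log2 scale, with quartiles at -0.28 and 0.15. Over all tested genes the median was -0.04, with quartiles at -0.63 and 0.39. Members took 1.27% and 1.29% of gene counts in A549 and 1.10% and 1.09% in TD.

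These counts moved with the libraries and genes that entered the fit. With pseudogenes left out, 40 members were called lower and 11 higher, or 50.0% of members against 60.1% of all genes then tested, and all 26 calls of the full fit were among them. With library totals in place of TMM scaling, 40 were called lower and 6 higher, which is 45.1% of tested members against 43.9% of all genes, so the order of these shares turned. With no low-count filter it turned as well, with 35.8% of 106 members against 24.3% of all genes. Without A549 replicate 1 the counts were 13 lower and 2 higher, and without A549 replicate 2 they were 10 and 2, or 14.7% and 11.8% of members against 23.3% and 24.1% of all genes. Without TD replicate 1 they were 22 and 21, or 42.2% against 61.7%. Without TD replicate 2 they were 41 and 9, and the share of members, 49.0%, was close to the 50.2% of all genes. Between the 2 TD libraries, members summed to 10745 CPM in replicate 1 and 11833 CPM in replicate 2, and between the A549 libraries to 12211 and 12762 CPM. Of the 26 called members, 9 kept their call under all 21 alternative settings: NDUFB8, NDUFC1, NDUFA13, NDUFAF2, COX6B1, COX15, COX17, ATP5MC1 and ATP5MD. Many of the 26 calls were lost when an A549 library was left out. With pseudogenes left out too, the calls held whichever of the 4 libraries was dropped. Those fits were chosen after the data were seen, so they are no independent check of the calls. For an A549 library, they also called a larger share of all genes than the fit without that library alone.

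**Figure D1:**
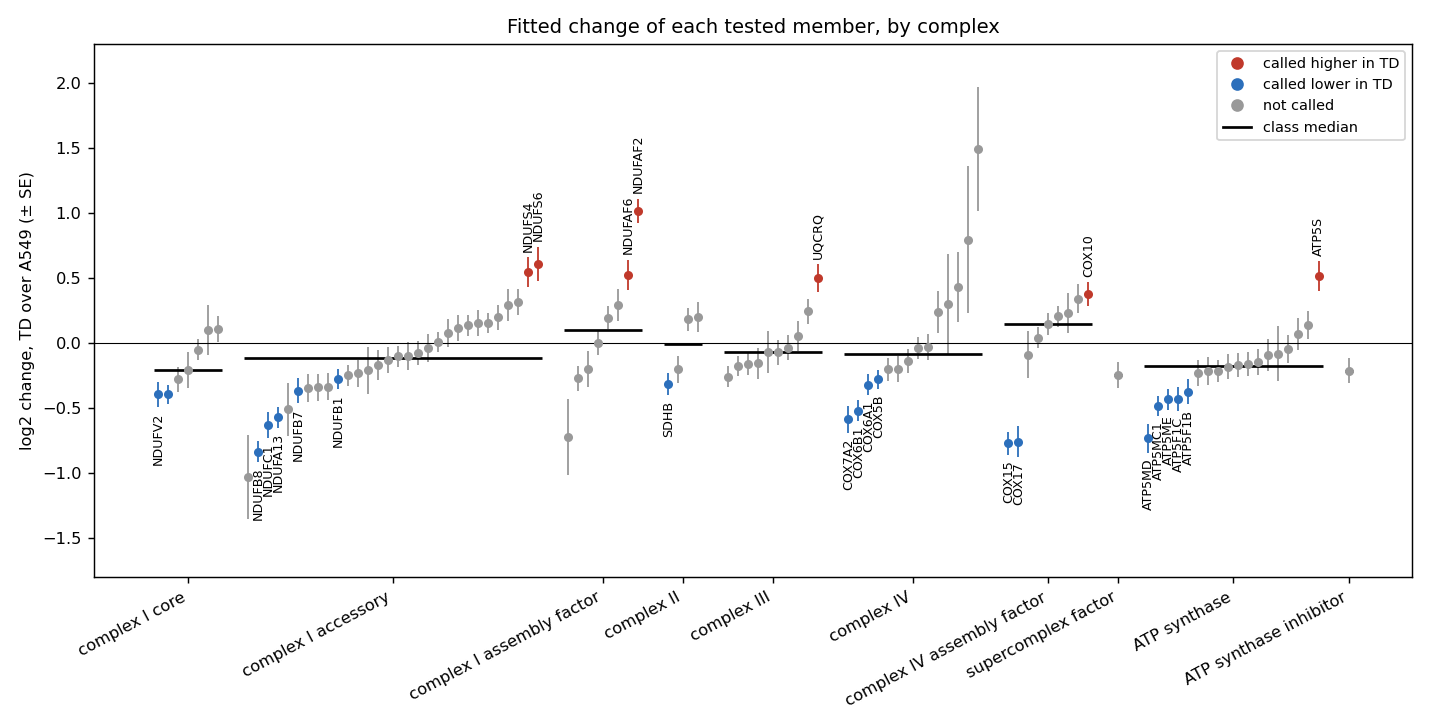
Fitted log2 change of TD over A549 for each of the 102 tested members, by complex, with bars for the standard error and a black line for the median of each class. Called members are in colour, most of them with their names: 19 lie below 0 and 7 above, and the medians of the subunit classes lie between -0.21 (complex I core) and -0.01 (complex II).

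Complex I, the NADH dehydrogenase, had 9 of its 37 subunits called, 7 lower and 2 higher, with a median change of -0.13. That is 24.3% called, against 43.0% of all tested genes. The share of all genes moved as well when a library was left out, as given above, and this holds for each complex below. With 1 library left out, the number called lower ran from 4 (without A549 replicate 2) to 17 (without TD replicate 2), and the number called higher from 0 (without A549 replicate 2) to 7 (without TD replicate 1). Its 7 core subunits hold the flavin and the iron-sulfur clusters and are conserved in bacteria. None of them was called higher. NDUFV2, an iron-sulfur subunit of the NADH-binding module, was at 27.9 and 32.1 CPM in A549 and 23.02 and 22.6 CPM in TD (log2 change -0.40 with SE 0.10, adjusted p = 0.029), a call that did not hold without A549 replicate 2 (adjusted p = 0.108). Both TD libraries of NDUFV2 lay below both A549 libraries, and 74.0% of all tested genes had groups that did not overlap. NDUFS1, the largest core subunit, was not called, at 161 and 177 CPM in A549 and 161 and 165 CPM in TD (log2 change -0.05 with SE 0.08, adjusted p = 0.656), and its groups overlapped.

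Among the 30 accessory subunits of complex I, which surround the core, 5 fell and 2 rose, or 23.3% against 43.0% of all tested genes. NDUFB8, a subunit of the membrane arm whose protein is often used as a readout of assembled complex I, was at 34.2 and 35.7 CPM in A549 and 19.1 and 20.2 CPM in TD (log2 change -0.83 with SE 0.08, adjusted p = 0.00154). Both TD libraries lay well below both A549 libraries, a 1.78-fold fall. NDUFC1, another membrane-arm subunit, fell 1.55-fold, from 63.3 and 71.3 CPM in A549 to 41.4 and 45.6 CPM in TD (log2 change -0.63 with SE 0.10, adjusted p = 0.00702). NDUFA13, first described as the cell-death protein GRIM-19, was at 24.0 and 23.5 CPM in A549 and 16.3 and 15.7 CPM in TD (log2 change -0.57 with SE 0.08, adjusted p = 0.00495). The other called falls, NDUFB7 (log2 change -0.37 with SE 0.10, adjusted p = 0.0358) and NDUFB1 (log2 change -0.28 with SE 0.08, adjusted p = 0.0447), were smaller, and both were lost without A549 replicate 1 (adjusted p = 0.0905 and 0.0677) or A549 replicate 2 (0.0839 and 0.0985), that of NDUFB1 also without TD replicate 1 (0.0789) and with DESeq2 size factors (0.0595). NDUFA7 had the lowest fitted value of all members, -1.03, but rested on 40 to 100 counts a library and was not called (adjusted p = 0.0572). With pseudogenes left out it was called lower (log2 change -1.08, adjusted p = 0.0034).

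The accessory subunits that rose were NDUFS6 and NDUFS4, both close to the NADH-binding arm and both mutated in inherited complex I deficiency. NDUFS6 was at 56.7 and 48.3 CPM in A549 and 72.6 and 87.4 CPM in TD (log2 change 0.61 with SE 0.13, adjusted p = 0.0194), and NDUFS4 at 41.3 and 45.9 CPM in A549 and 58.5 and 68.8 CPM in TD (log2 change 0.55 with SE 0.11, adjusted p = 0.0165). Every TD library lay above every A549 library for both. The NDUFS6 call was lost without A549 replicate 2 (adjusted p = 0.0916), and that of NDUFS4 without A549 replicate 1 (0.0914) and replicate 2 (0.0513). NDUFS5, an accessory subunit of the intermembrane space side, was the complex I subunit nearest to no change, at 177 and 186 CPM in A549 and 178 and 187 CPM in TD (log2 change 0.01 with SE 0.08, adjusted p = 0.942). NDUFB9 and NDUFB3 had changes of -0.04 and -0.08, with overlapping groups.

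Of the 8 complex I assembly factors, 2 rose and none was called lower, with a median change of 0.10. The share called was smaller than the 43.0% of all tested genes. Leaving out TD replicate 1, TD replicate 2 or pseudogenes gave 2 called lower in each case, and leaving out A549 replicate 1 or 2 gave 1 called higher. NDUFAF2, a chaperone of the late steps of complex I assembly, showed the largest change of any called member, from 23.7 and 25.7 CPM in A549 to 47.7 and 52.5 CPM in TD (log2 change 1.02 with SE 0.09, adjusted p = 0.00123). In the full fit this 2.03-fold rise was the only call in the whole set to reach 2-fold. With pseudogenes left out, the log2 change of NDUFAF2 was 0.98. In that fit NDUFA7 (log2 change -1.08, adjusted p = 0.0034) and COX7A1 (1.46, adjusted p = 0.0143) were called with larger changes. NDUFAF6, a factor of early assembly, was at 9.31 and 8.80 CPM in A549 and 12.2 and 13.8 CPM in TD (log2 change 0.52 with SE 0.12, adjusted p = 0.021), a call that did not hold without A549 replicate 1 (adjusted p = 0.0817) or replicate 2 (0.0964). NDUFAF3, which acts with NDUFAF4 in early assembly, had a fitted change of -0.73, at 35.9 and 23.3 CPM in A549 and 14.03 and 21.6 CPM in TD. It was not called (adjusted p = 0.109), but was called lower with pseudogenes left out (adjusted p = 0.00375). NDUFAF5, a methyltransferase-like factor, had the same mean in both lines to within its spread, 22.5 ± 1.79 to 22.5 ± 0.471 CPM.

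Complex II, succinate dehydrogenase, is shared between the respiratory chain and the citric acid cycle and is wholly encoded in the nucleus. Its 4 subunits did not share a direction, and the median was -0.01. In the full fit 1 of the 4 was called, a smaller share than the 43.0% of all tested genes. Without TD replicate 1, 2 of the 4 were called higher and none lower. SDHB, the iron-sulfur subunit, fell, from 119 and 119 CPM in A549 to 90.1 and 102 CPM in TD (log2 change -0.31 with SE 0.09, adjusted p = 0.0409). That call was lost without A549 replicate 1 (adjusted p = 0.0824), A549 replicate 2 (0.0868) or TD replicate 1 (0.0773). SDHA, the flavoprotein, was at 106 and 102 CPM in A549 and 111 and 124 CPM in TD (log2 change 0.18 with SE 0.09, adjusted p = 0.162). SDHC and SDHD anchor the complex in the membrane. SDHC was at 89.9 and 90.9 CPM in A549 and 93.7 and 114 CPM in TD (log2 change 0.20 with SE 0.11, adjusted p = 0.223), and SDHD at 48.7 and 57.9 CPM in A549 and 46.5 and 46.3 CPM in TD (log2 change -0.20 with SE 0.11, adjusted p = 0.192). None of these 3 was called. Their groups did not overlap, as was so for 74.0% of all tested genes. Fitted values were above 0 for SDHA and SDHC and below 0 for SDHD.

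Complex III, the cytochrome bc1 complex, had a median change of -0.07. It had 1 called subunit of 10, the lowest share of the larger complexes (10.0%, against 43.0% of all tested genes). Without TD replicate 1 it had 2 higher and 1 lower, and without TD replicate 2, 1 higher and 2 lower. UQCRQ, a small subunit next to cytochrome b, rose from 110.0 and 110.2 CPM in A549 to 142 and 169 CPM in TD (log2 change 0.50 with SE 0.11, adjusted p = 0.0184), a call that did not hold without A549 replicate 1 (adjusted p = 0.0916) or 2 (0.0829). CYC1, cytochrome c1, was at 252 and 244 CPM in A549 and 199.8 and 246 CPM in TD (log2 change -0.16 with SE 0.12, adjusted p = 0.365), and TD replicate 2 lay within the A549 range. UQCRFS1, the Rieske iron-sulfur protein, was at 217 and 233 CPM in A549 and 184 and 192 CPM in TD and missed the threshold (log2 change -0.26 with SE 0.08, adjusted p = 0.055). It was called lower with pseudogenes left out (adjusted p = 0.00857) and by the DESeq2 test (0.00735). UQCRB, UQCRC1 and UQCR11 had changes of -0.04, 0.05 and -0.07, with overlapping groups. UQCRHL is a near-identical intronless copy of UQCRH, so the split of reads between these genes is uncertain. UQCRH was at 272 and 303 CPM in A549 and 328 and 353 CPM in TD and UQCRHL at 31.5 and 29.8 CPM in A549 and 33.6 and 24.8 CPM in TD, and neither was called.

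Complex IV, cytochrome c oxidase, had 4 subunits called, all lower in TD, among 14 tested of 18, with a median change of -0.09. That is 28.6% called, against 43.0% of all tested genes, or 21.4% counting only those called lower. The median was -0.24 when only genes with at least 5 CPM in 2 libraries were fitted, which leaves out the tissue isoforms of low level. Without A549 replicate 1 or 2 the number called lower was 2 or 1, and without TD replicate 1 there were 3 lower and 3 higher. COX6B1, which faces the intermembrane space, was at 385 and 403 CPM in A549 and 267 and 282 CPM in TD (log2 change -0.52 with SE 0.08, adjusted p = 0.00676). COX7A2, the broadly expressed isoform of subunit 7A, fell 1.503-fold, from 162 and 183 CPM in A549 to 121 and 109 CPM in TD (log2 change -0.59 with SE 0.10, adjusted p = 0.01), a call that did not hold without A549 replicate 2 (adjusted p = 0.079). COX6A1 (log2 change -0.32 with SE 0.08, adjusted p = 0.0294) and COX5B (log2 change -0.28 with SE 0.07, adjusted p = 0.0333) fell by less and lost their calls without A549 replicate 1 (adjusted p = 0.0672 and 0.0654) or 2 (0.0588 and 0.0757), that of COX5B also without TD replicate 1 (0.0685). COX4I1 and COX5A, which join the oxidase early in its assembly, were not called, at 304 and 299 CPM in A549 and 275 and 316 CPM in TD (log2 change -0.03 with SE 0.10, adjusted p = 0.822) and at 96.6 and 85.3 CPM in A549 and 91.7 and 123 CPM in TD (log2 change 0.24 with SE 0.16, adjusted p = 0.302). COX7C had a change of -0.04 with overlapping groups.

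COX7B was the least even member among the abundant subunits. It stood at 72.9 and 163 CPM in the A549 libraries and at 129 and 160.5 CPM in the TD libraries, so A549 replicate 1 alone was low, and no change was called (log2 change 0.30 with SE 0.39, adjusted p = 0.582). NDUFA4, a complex IV subunit despite its name, was at 216 and 240.2 CPM in A549 and 195 and 202 CPM in TD (log2 change -0.20 with SE 0.09, adjusted p = 0.134).

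Tissue-restricted isoforms of complex IV had few or no counts in both lines. COX4I2, an isoform known from lung and from hypoxia, COX6A2 of striated muscle and COX8C of testis had 0 counts in all 4 libraries, where 3 counts would be 0.068 to 0.112 CPM. COX7B2 had 0 to 3 counts a library. COX6B2, a testis isoform, had 10 and 10 counts in A549 and 25 and 15 in TD, and COX7A1, the heart and muscle counterpart of COX7A2, had 5 and 5 against 13 and 22. Neither was called (adjusted p = 0.323 and 0.061). COX7A1 passed the threshold with pseudogenes left out (log2 change 1.46, adjusted p = 0.0143), with protein-coding genes only (0.0134) and without TD replicate 1 (0.0176), and COX6B2 without TD replicate 2 (0.022). NDUFA4L2, a hypoxia-inducible paralog of NDUFA4, had 29 and 32 counts in A549 and 38 and 63 in TD, with no call (adjusted p = 0.264).

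The assembly factors of complex IV held some of the largest falls. Of the 9 factors, 33.3% were called, against 43.0% of all tested genes. COX15, which makes heme A for the oxidase, was at 72.0 and 76.0 CPM in A549 and 40.9 and 45.7 CPM in TD (log2 change -0.77 with SE 0.09, adjusted p = 0.00265), and COX17, the copper chaperone that feeds its copper centres, at 60.7 and 74.3 CPM in A549 and 39.0 and 40.7 CPM in TD (log2 change -0.76 with SE 0.12, adjusted p = 0.00683). Both TD libraries were below both A549 libraries for each, a 1.71-fold and a 1.69-fold fall. COX10, the enzyme one step before COX15 in heme A synthesis, rose instead, from 23.8 and 21.8 CPM in A549 to 28.5 and 30.7 CPM in TD (log2 change 0.38 with SE 0.09, adjusted p = 0.0269). The COX10 call was lost without A549 replicate 1 (adjusted p = 0.0621) or 2 (0.105), and with library totals (0.053). The other 6 factors were not called, and 5 of them had fitted values above 0. COX11, which inserts copper, was at 69.2 and 66.7 CPM in A549 and 74.9 and 81.7 CPM in TD (log2 change 0.20 with SE 0.08, adjusted p = 0.103), and COX14 had a change of 0.04. COX7A2L, which joins complexes III and IV into supercomplexes, was at 123 and 129 CPM in A549 and 97.7 and 114 CPM in TD (log2 change -0.25 with SE 0.10, adjusted p = 0.117).

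The ATP synthase had 5 genes called lower and 1 higher of 18 tested, or 33.3% against 43.0% of all tested genes. Fitted values were below 0 for 15 of 18, and for 9371 of all 17785 tested genes. The median was -0.17, the lowest of the 5 complexes. With only genes of at least 5 CPM in 2 libraries, complex IV was lower, at -0.24 against -0.21. The number called lower was 3 without A549 replicate 2 and 10 without TD replicate 2. ATP5F1B, the catalytic beta subunit and the most abundant member in A549 per kilobase of transcript (726 CPM per kilobase), was at 1332 and 1339 CPM in A549 and 975 and 1086 CPM in TD (log2 change -0.37 with SE 0.10, adjusted p = 0.0351). Its call was lost without A549 replicate 1 (adjusted p = 0.0881) or 2 (0.0976). ATP5F1C, the gamma subunit of the rotating stalk, fell from 261 and 290.0 CPM in A549 to 199 and 209.8 CPM in TD (log2 change -0.43 with SE 0.09, adjusted p = 0.0173), with the call lost without A549 replicate 2 (0.0533). ATP5F1A, the alpha subunit that alternates with beta in the catalytic head, was at 467 and 497 CPM in A549 and 410.0 and 462 CPM in TD, not called (log2 change -0.14 with SE 0.10, adjusted p = 0.308).

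In the membrane part, ATP5MD, a small subunit also called DAPIT, fell 1.66-fold, from 112 and 126 CPM in A549 to 66.5 and 76.7 CPM in TD (log2 change -0.73 with SE 0.11, adjusted p = 0.00637), and ATP5ME, subunit e, from 90.8 and 91.8 CPM in A549 to 64.4 and 70.8 CPM in TD (log2 change -0.43 with SE 0.08, adjusted p = 0.0121). The proton-carrying c-ring is built from identical mature peptides that ATP5MC1, ATP5MC2 and ATP5MC3 encode behind different import sequences. ATP5MC1 fell, from 213 and 217 CPM in A549 to 149 and 158 CPM in TD (log2 change -0.48 with SE 0.08, adjusted p = 0.00702). ATP5MC2 was at 193 and 206 CPM in A549 and 177 and 209 CPM in TD (log2 change -0.05 with SE 0.11, adjusted p = 0.747) and ATP5MC3 at 387 and 389.9 CPM in A549 and 319 and 365 CPM in TD (log2 change -0.18 with SE 0.10, adjusted p = 0.201), and neither was called. Whether the change of ATP5MC1 differed from those of its paralogs was not tested. ATP5MC3, the most abundant of the trio in both lines, was at 461 CPM per kilobase in A549, against 360 for ATP5MC1 and 111 for ATP5MC2. The lengths used were 842, 598 and 1792 bases in that order, so these levels depend on the transcript chosen.

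ATP5S, also named DMAC2L, is a coupling factor rather than a subunit of the enzyme, though it is counted with the ATP synthase here. It was the only ATP5 gene to rise, from 9.27 and 9.91 CPM in A549 to 12.9 and 14.5 CPM in TD (log2 change 0.52 with SE 0.11, adjusted p = 0.0207), and its call was lost without A549 replicate 1 (adjusted p = 0.105) or 2 (0.0693). ATP5IF1, which inhibits the enzyme when it runs in reverse, was at 54.2 and 47.2 CPM in A549 and 44.0 and 43.5 CPM in TD (log2 change -0.21 with SE 0.09, adjusted p = 0.137). The peripheral stalk genes ATP5PB, ATP5PD, ATP5PF and ATP5PO had changes of 0.14, -0.21, -0.22 and -0.16, and none was called. ATP5MGL, a copy of ATP5MG, had 0 to 6 counts a library and was not tested, as were the read-through loci ATP5MF-PTCD1 and NDUFC2-KCTD14.

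**Figure D2:**
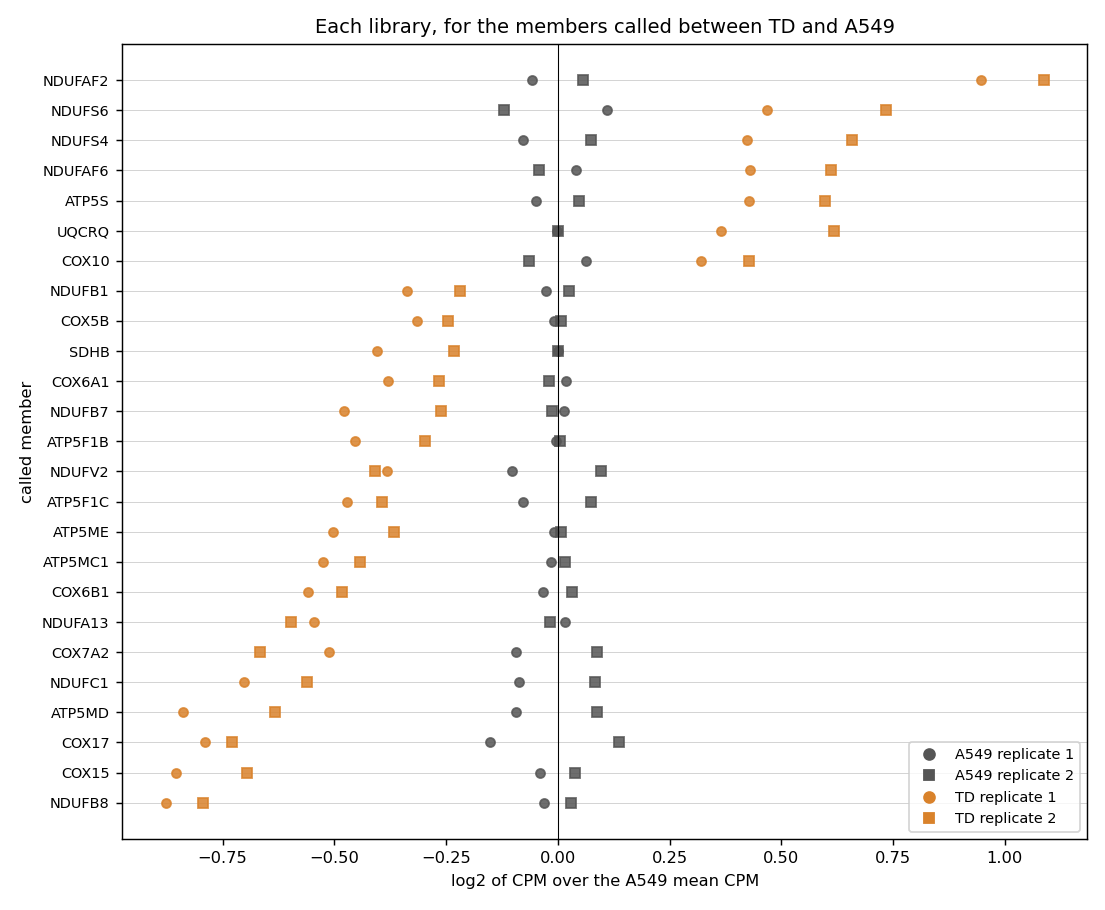
Each library's CPM over the A549 mean of the same gene, on a log2 axis, for called members, with A549 in grey, TD in orange, circles for replicate 1 and squares for replicate 2. The groups are apart for every gene shown, and NDUFAF2 and NDUFB8 mark the ends, at fitted changes of 1.02 and -0.83.

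Groups that did not overlap were common among all genes: 71 of 102 tested members showed this, against 74.0% of all tested genes. Summed over subunits, the ATP synthase stood at 4171 and 4358 CPM in A549 and at 3424 and 3807 CPM in TD, and complex IV at 2257 and 2425 CPM against 1965 and 2136 CPM. For both, every TD library was below every A549 library. Complex III stood at 1782 and 1883 CPM against 1741 and 1906 CPM, complex II at 364 and 369.9 CPM against 341 and 386 CPM, and complex I at 2922 and 2996 CPM against 2619 and 2885 CPM. The sums of complex I were also apart, with both TD libraries below both A549 libraries, while those of complexes II and III overlapped between the lines. Per kilobase of transcript, the median subunit level in A549 was 224 CPM for complex IV, 209 for the ATP synthase, 138 for complex III, 82.7 for complex II and 71.0 for complex I. The assembly factors were lower, at medians of 17.6 for complex I and 31.6 for complex IV.

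Several of the called members lie on chromosomes 5 and 10. Of the 7 members that rose, 4 lie on chromosome 5, namely NDUFS4, NDUFS6, NDUFAF2 and UQCRQ, and the 7 tested members on that chromosome had a median change of 0.50. All 4 members on chromosome 10 fell, namely NDUFB8, COX15, ATP5MD and ATP5F1C, with changes from -0.83 to -0.43. Most called genes among the others of these chromosomes moved the same way. The 574 other tested protein-coding genes of chromosome 5 had a median change of 0.57, with 355 called higher and 40 lower, and the 524 of chromosome 10 a median of -0.40, with 88 higher and 254 lower. On each of the remaining chromosomes the median of other genes lay between -0.19 (chromosome 2) and 0.19 (chromosome 9).

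Immediate neighbours of each member were taken as up to 25 tested protein-coding genes on each side in gene order. Those of NDUFAF2 had a median change of 0.69, those of NDUFS4 a median of 0.68, those of NDUFS6 of 0.63 and those of UQCRQ of 0.59. Around NDUFB8, COX15 and ATP5MD, which lie near each other and share some neighbours, the medians were -0.60, -0.56 and -0.55, while around ATP5F1C it was -0.05. SDHA and COX7C also lie on chromosome 5, with changes of 0.18 and -0.04 among neighbours at 0.68 and 0.63. COX17, NDUFC1 and ATP5MC1 fell among neighbours with medians above 0, at 0.09, 0.18 and 0.28. COX5B and COX7A2 fell among neighbours with medians below 0, at -0.47 and -0.29. Across the 102 tested members, the change of a member and the median of its neighbours had a Pearson correlation of 0.46 and a Spearman correlation of 0.38, over genes that share the same 4 libraries. Without the members of chromosomes 5 and 10 these values were 0.15 and 0.19 over 91 members, which had 15 called lower, 3 called higher and a median change of -0.14. The part of chromosomal position in these changes was not tested.

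**Figure D3:**
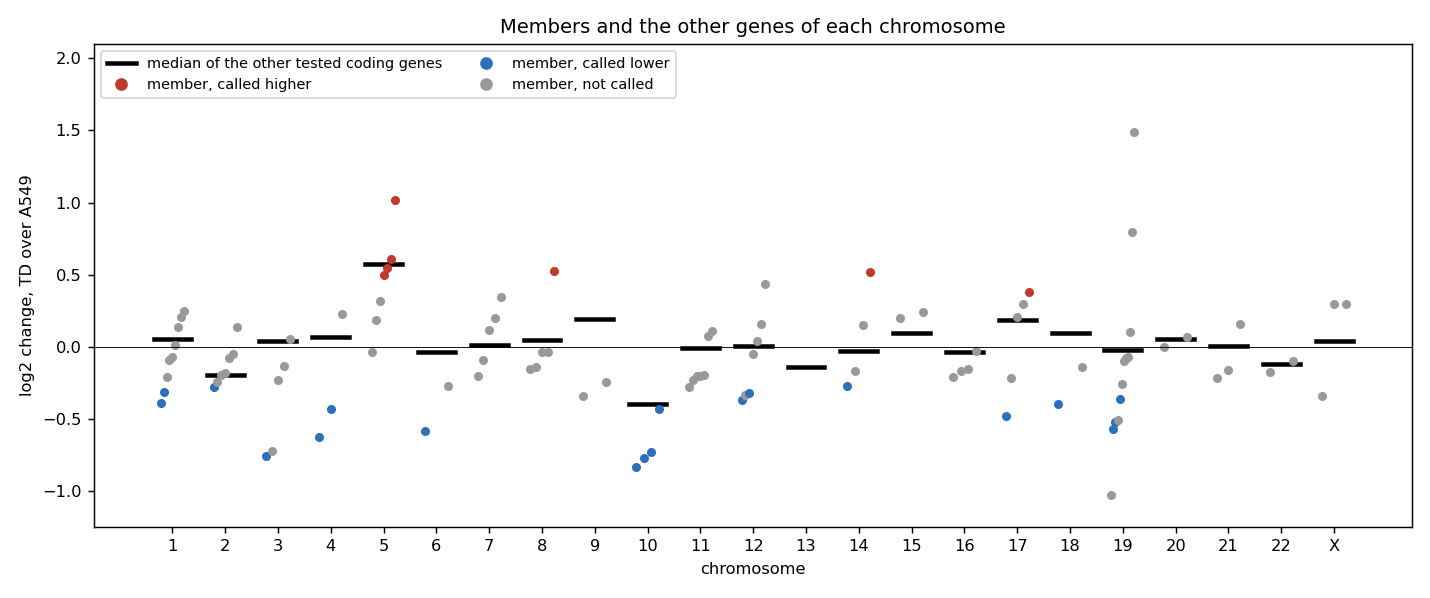
Log2 change of TD over A549 for the tested members (points) of each chromosome, with a black bar for the median of all other tested protein-coding genes there. The bars of chromosome 5 (0.57) and chromosome 10 (-0.40) lie farthest from 0, and the members there lie on the same side as the bar except COX7C, at -0.04.

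Promoters of respiratory chain genes are known for sites of NRF1, of ETS-family factors such as GABPA, and of YY1. Windows of 300 bases, from 250 before to 50 after the first listed RefSeq start (GRCh38.p14), were found for 86 of the 109 members. They were searched on both strands for NRF1's palindromic consensus, CCGGAAG (ETS) and AAGATGGCG (YY1), none of which contains another. The NRF1 letters were in 7 of the 86 windows (8.14%), the ETS letters in 24 (27.9%) and the YY1 letters in 9 (10.5%). Over all 27305 windows of the table the shares were 1.36%, 10.7% and 1.85%. The ETS letters were in 10 of 17 windows of members called lower, in 2 of 5 of members called higher and in 12 of 60 of members tested and not called. These counts are descriptions of the windows only.

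The windows below belong to called members that hold such letters, 2 that fell (COX15 and COX17) and 2 that rose (UQCRQ and NDUFS4). Matched letters are in capitals, and each sequence is given on the strand of its gene. COX15 (chr10:99732078-99732377, minus strand) and UQCRQ (chr5:132866392-132866691, plus strand) hold an ETS match, COX17 (chr3:119677357-119677656, minus strand, the first of 2 listed starts) an NRF1 and an ETS match, and NDUFS4 (chr5:53560389-53560688, plus strand) a YY1 match.
COX15: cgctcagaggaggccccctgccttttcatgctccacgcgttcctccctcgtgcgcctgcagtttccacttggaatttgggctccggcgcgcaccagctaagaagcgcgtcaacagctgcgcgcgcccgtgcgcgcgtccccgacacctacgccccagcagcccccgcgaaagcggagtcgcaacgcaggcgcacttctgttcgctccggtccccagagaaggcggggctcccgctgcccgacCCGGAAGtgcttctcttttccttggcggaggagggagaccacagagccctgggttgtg
COX17: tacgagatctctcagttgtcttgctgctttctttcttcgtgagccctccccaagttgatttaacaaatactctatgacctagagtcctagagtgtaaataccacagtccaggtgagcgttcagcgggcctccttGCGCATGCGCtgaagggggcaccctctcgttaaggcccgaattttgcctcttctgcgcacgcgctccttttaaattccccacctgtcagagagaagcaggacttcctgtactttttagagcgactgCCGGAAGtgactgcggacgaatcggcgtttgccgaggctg
UQCRQ: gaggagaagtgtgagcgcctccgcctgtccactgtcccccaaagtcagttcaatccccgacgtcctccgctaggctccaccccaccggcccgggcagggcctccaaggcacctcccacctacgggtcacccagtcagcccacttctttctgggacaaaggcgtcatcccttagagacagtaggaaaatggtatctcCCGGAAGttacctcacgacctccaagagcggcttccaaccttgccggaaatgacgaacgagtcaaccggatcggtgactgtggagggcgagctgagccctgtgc
NDUFS4: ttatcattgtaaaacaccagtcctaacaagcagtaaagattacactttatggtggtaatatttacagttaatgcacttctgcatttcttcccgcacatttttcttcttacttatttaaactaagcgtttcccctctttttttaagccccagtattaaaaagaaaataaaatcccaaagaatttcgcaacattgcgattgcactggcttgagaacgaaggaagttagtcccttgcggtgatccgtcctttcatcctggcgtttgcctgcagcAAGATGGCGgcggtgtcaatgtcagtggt

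The subunits encoded in mitochondrial DNA were counted in the same libraries. Of 13, none was called higher and 1 lower, or 7.69% against 43.0% of all tested genes, with a median change of -0.01. By unadjusted p below 0.05 the count was also 1, against 51.1% of all tested genes. Without TD replicate 1, 6 were called higher and 1 lower, and without TD replicate 2, 1 higher and 5 lower. MT-ND3, a complex I subunit, was the member called, at 864 and 1041 CPM in A549 and 501 and 680.2 CPM in TD (log2 change -0.69 with SE 0.19, adjusted p = 0.0367), a call that did not hold without A549 replicate 1 (adjusted p = 0.0745) or 2 (0.146). MT-ATP8 and MT-ATP6, the mitochondrially encoded ATP synthase subunits, had fitted changes of 0.34 and 0.29 and were not called (adjusted p = 0.188 and 0.205). Nuclear copies of mitochondrial genes make these values uncertain. CYCS, cytochrome c itself, was at 513 and 539 CPM in A549 and 461 and 470.2 CPM in TD (log2 change -0.18 with SE 0.08, adjusted p = 0.146).

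Single genes of other mitochondrial lists changed by more than any called member. Among 22 regulators of mitochondrial gene expression, 5 rose and 5 fell, or 45.5% against the 43.0% of all tested genes, with a median of 0.15. Without TD replicate 1 it was 8 and 5 with a median of 0.23, and without A549 replicate 1 or 2 it was 4 and 3 or 3 and 4, with medians of 0.05 and 0.14. Without TD replicate 2 the median was 0.08. PPARGC1A, the coactivator PGC-1 alpha that drives mitochondrial biogenesis, fell from 23.8 and 21.4 CPM in A549 to 0.414 and 0.689 CPM in TD (log2 change -5.31 with SE 0.24, adjusted p = 0.000143). ESRRG, a nuclear receptor that works with it, fell from 0.970 and 0.843 CPM in A549 to 0.103 and 0.221 CPM in TD (log2 change -2.41 with SE 0.50, adjusted p = 0.0171), a call that did not hold without A549 replicate 1 (adjusted p = 0.137) or 2 (0.112). PPARGC1B, a paralog of PPARGC1A, rose, from 14.2 and 11.3 CPM in A549 to 20.6 and 20.5 CPM in TD (log2 change 0.69 with SE 0.14, adjusted p = 0.0142), as did HIF1A, the oxygen-regulated factor, from 223 ± 10.3 to 402 ± 26.3 CPM (log2 change 0.85 with SE 0.09, adjusted p = 0.00212). The PPARGC1B call was lost without A549 replicate 2 (adjusted p = 0.0511). NRF1 was at 19.5 and 21.0 CPM in A549 and 18.5 and 22.2 CPM in TD (log2 change 0.01 with SE 0.12, adjusted p = 0.966), and TFAM, the packaging and transcription factor of mitochondrial DNA, at 104 and 116 CPM in A549 and 128 and 134 CPM in TD (log2 change 0.25 with SE 0.09, adjusted p = 0.074), and neither was called.

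Of 18 electron carriers and ubiquinone enzymes outside the complexes, 8 fell and 1 rose, with a median of -0.33. That is 50.0% called, between the 43.0% of all tested genes and the 52.1% of protein-coding genes with a mean of at least 10 CPM. None was called higher without either A549 library. SQOR, which feeds electrons from sulfide to ubiquinone, fell from 37.4 ± 1.78 to 7.44 ± 0.197 CPM (log2 change -2.33 with SE 0.09, adjusted p = 8.95e-05), and COQ3, a methyltransferase of ubiquinone synthesis, from 22.4 ± 0.858 to 11.4 ± 0.798 CPM (log2 change -0.98 with SE 0.10, adjusted p = 0.00168). COQ4, also of ubiquinone synthesis, rose from 21.4 ± 1.58 to 30.8 ± 3.52 CPM (log2 change 0.53 with SE 0.12, adjusted p = 0.0203), a call that did not hold without A549 replicate 1 (adjusted p = 0.0627) or 2 (0.0966). Of 25 genes of the citric acid cycle and pyruvate entry, 10 fell and 1 rose, or 44.0% against 43.0% of all tested genes, with a median of -0.24. PDK4, the kinase that shuts off pyruvate dehydrogenase, fell from 64.9 and 77.0 CPM in A549 to 0.345 and 0.197 CPM in TD (log2 change -8.07 with SE 0.23, adjusted p = 4.97e-05), and PC, pyruvate carboxylase, from 63.4 ± 1.24 to 17.3 ± 1.57 CPM (log2 change -1.87 with SE 0.09, adjusted p = 0.000199). DLST, a subunit of the oxoglutarate dehydrogenase complex, rose from 139 ± 2.55 to 177 ± 11.2 CPM (log2 change 0.35 with SE 0.08, adjusted p = 0.0248), a call that did not hold without A549 replicate 1 (adjusted p = 0.1) or 2 (0.0724). These genes had 10 called lower and 5 higher without TD replicate 1, with a median of -0.04, and without A549 replicate 2 they had 6 lower and none higher.

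Of 39 further assembly factors, 9 fell and 5 rose, or 35.9% against 43.0% of all tested genes, with a median of -0.19. Without A549 replicate 1 or 2 it was 6 lower and 2 higher in both cases, without TD replicate 2, 16 and 5, and without TD replicate 1, 13 and 6 with a median of -0.10. LYRM7, which helps to place the Rieske protein in complex III and lies on chromosome 5, rose from 12.6 ± 0.316 to 26.1 ± 2.36 CPM (log2 change 1.05 with SE 0.10, adjusted p = 0.00151), and TTC19, another complex III factor, from 34.5 ± 0.132 to 49.0 ± 3.38 CPM (log2 change 0.50 with SE 0.08, adjusted p = 0.00817). COA5, of complex IV assembly, fell from 18.8 ± 0.432 to 10.8 ± 0.742 CPM (log2 change -0.81 with SE 0.10, adjusted p = 0.00317), and FMC1, of ATP synthase assembly, from 11.5 ± 0.193 to 7.03 ± 0.145 CPM (log2 change -0.71 with SE 0.11, adjusted p = 0.00641). Mitochondrial ribosomal proteins, which translate the mitochondrially encoded subunits, had 15 of 76 lower and 7 higher, with a median of -0.08. That is 28.9% called, against 43.0% of all tested genes. The majority turned without TD replicate 1, with 15 lower and 18 higher and a median of -0.05. Without TD replicate 2 it was 29 and 8 (median -0.13), and without A549 replicate 1 or 2 it was 7 and 5 (median -0.17) or 6 and 3. MRPS27 and MRPS30, both on chromosome 5, rose by 0.88 and 0.72, and MRPL53 and MRPL43 had changes of -1.24 and -1.04. The MRPL53 call was lost without A549 replicate 1 (adjusted p = 0.0843) or 2 (0.0859). Cytosolic ribosomal proteins, also short and abundant messages, had 16 of 84 higher and 3 lower, with a median of 0.22. That is 22.6% called, against 43.0% of all tested genes. The share of all genes called also moved with the library left out, as given above, for these and the other lists. Without TD replicate 1, 58 were called higher and 7 lower, without TD replicate 2, 22 and 16 with a median of 0.02, and without A549 replicate 1 or 2, 3 and 1 or 6 and 2. RPL28 rose by 1.03, and RPS19 and RPL31 had changes of -0.67 and -0.46. The calls of RPL28 and RPL31 were lost without A549 replicate 1 (adjusted p = 0.0852 and 0.0725) or 2 (0.0944 and 0.112).

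**Figure D4:**
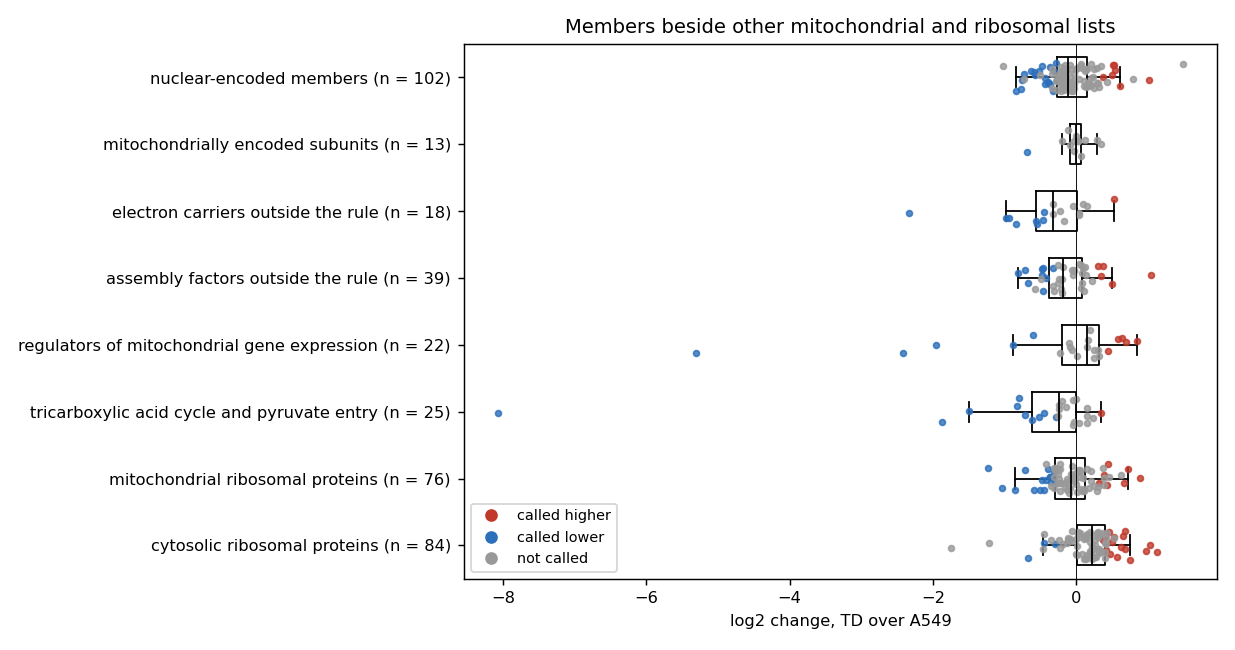
Log2 change of TD over A549 for the tested genes of each list, with boxes from the lower to the upper quartile, a line for the median and whiskers to the farthest gene within 1.5 box lengths. The 102 members have a median of -0.12 and the cytosolic ribosomal proteins of 0.22, while PDK4 (-8.07) and PPARGC1A (-5.31) lie far to the left.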

How the data were processed

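The authors deposited raw read counts per gene, 1 file for each of 4 libraries. FastQC 0.11.8, STAR 2.7.1a, HTSeq 0.11.2 and hg19 (GRCh37) are named, per the submitters' processing notes; the libraries were strand-specific, per the labels' protocols, but the strand setting of the counting and the annotation release are not stated there. Symbols, gene types, chromosomes, gene order and transcript lengths came from GENCODE 29, which is on GRCh38, and 52338 of 57820 identifiers matched. Exons of 60 members overlap another gene, 32 of them on the same strand, and many members have near-identical processed pseudogenes, so their counts are uncertain to that extent. Reads outside genes (6.12% to 7.79% of all), in more than 1 gene (2.34% to 2.56%) or with more than 1 alignment (8.08% to 9.22%) entered neither library sizes nor tests.

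TD was compared with A549 over all genes by glmQLFTest of edgeR 4.0.16 (R 4.3.3), after filterByExpr and TMM scaling. That test was also run on simulated counts with the same spread for every gene. The real counts need not vary so, and the simulation is no check of the p-values given here. CPM values are on that scale, as mean ± SD of 2 libraries where so given; SE is the fitted change over the root of its F statistic. A level per kilobase divides CPM by the median coding transcript paired with a RefSeq mRNA, and it depends on that choice of length. Counting error alone is covered by the limit of 3 counts for a gene at 0. The members, lists and alternatives were chosen with earlier results of these data known. Full values are given for called members with at least a 1.5-fold change, for the largest called change in each direction of each class, for complex II, CYC1 and the isoforms, and for the 2 largest called changes in each direction of other lists. In addition, other members were named after their values were seen. Some genes that this rule names are not reported here. DESeq2 1.42.0 and limma 3.58.1 served as alternatives.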

Additional observations from a re-analysis of the deposited data

How the results depend on the processing

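The number of members called higher, 7 in the report, was 12 by the DESeq2 test, 14 with protein-coding genes only, 11 with pseudogenes left out and 3 in a test against a 1.2-fold change. With 1 library left out it ranged from 2 to 21, and with pseudogenes left out as well from 8 to 15. The number called lower, 19 in the report, was 29 with upper-quartile scaling, 40 with library totals, 30 with no low-count filter, 35 with at least 5 CPM in 2 libraries, 38 with protein-coding genes only, 40 with pseudogenes left out and 9 against a 1.2-fold change. With 1 library left out it ranged from 10 to 41, and with pseudogenes left out as well from 25 to 37 (33 without TD replicate 1, 37 without TD replicate 2 or A549 replicate 1). The biological coefficient of variation was 20.1% with all genes and 7.90% without pseudogenes, and without A549 replicate 1 or 2 it was 34.1% and 34.0%, where the spread rests on the TD pair and the lone A549 library is assumed to vary like it. The share of all genes called moved with the setting as well. By the DESeq2 test 38.2% of members and 46.3% of all genes were called. With protein-coding genes only it was 51.0% and 63.9%, and against a 1.2-fold change 11.8% and 33.1%. With upper-quartile scaling it was 36.3% and 45.5%, and with the 5 CPM filter 43.9% and 59.1%. Members had the larger share with library totals and with no low-count filter, as given above. The fits that leave out pseudogenes and a library together were chosen after seeing the data. The cause of these shifts was not tested.

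With library totals the median change was -0.20 for complex I, -0.0854 for complex II and -0.16 for complex IV. For complex IV it was also -0.16 with no low-count filter and -0.24 with the 5 CPM filter, which drops its low isoforms. With 1 library left out, alone or with pseudogenes, the medians ranged from -0.24 to -0.0354 for complex I, from -0.10 to 0.0387 for complex II, from -0.14 to -0.01 for complex III, from -0.22 to -0.0277 for complex IV and from -0.29 to -0.11 for the ATP synthase, where it was -0.27 when A549 replicate 1 was dropped. When pseudogenes were dropped too, it was -0.270 for TD replicate 2 and -0.268 for A549 replicate 1. No called member changed direction under any of the 21 alternatives.

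With the replicate number as a block, 5 members were called higher and 15 lower, and 17 of the 26 calls held. The calls of COX10, COX5B, COX6A1, NDUFAF6, NDUFB1, NDUFB7, NDUFS6, NDUFV2 and SDHB did not, with adjusted p from 0.056 to 0.0724, where 5811 of all genes were called. The numbers pair no samples by the labels, and over 17785 genes the deviations of same-numbered libraries correlated at -0.08, so the libraries are taken to share only a number.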

Other observations

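The files also hold 167 pseudogenes named after members. Together they had 1750 and 1651 counts in A549 and 1514 and 848 in TD, which is 0.00655%, 0.00562%, 0.00536% and 0.00192% of gene counts. TD replicate 2, the deepest library, was the lowest, as it was for pseudogenes in general. The read-through locus NDUFC2-KCTD14 had at most 1 count in any library, and ATP5MF-PTCD1 had 4 to 8.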
